A study of Mus musculus with 14 samples.

Results

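Scavenger receptors are surface and endosomal proteins with which macrophages take up modified lipoproteins, lipids, particles, microbes and the remains of dead cells. The family is held together by its ligands rather than by a shared structure, and its classes range from collagen-like trimers to lectins. Macrophages switch individual receptors on and off with their state, so that Marco is commonly read as an inducible receptor of activated cells, and Mrc1 and Cd163 as receptors of alternatively activated ones. The genes described here are Marco and Msr1 (class A), Cd36 and Scarb1 (class B), Cd68 (class D), Olr1 (class E), Stab1 (class H), Cd163 (class I) and the mannose receptor Mrc1. They were taken by gene symbol, and all 9 members were found among the 55414 genes of the count table. Of these, 8 had enough counts to be tested, as had 12851 genes in all, and Olr1 had not.

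The samples were 14 cultures of primary bone marrow-derived macrophages (pBMDMs), differentiated with M-CSF from marrow of wildtype C57BL/6N mice and sequenced from the 3′ ends of transcripts. In 12 of them the pBMDMs had spent 24 h in supernatant from Pfa1 MEFs, an embryonic fibroblast line in which 4-hydroxytamoxifen (4OHT) deletes the ferroptosis-suppressing enzyme GPX4. The fibroblasts had received neither agent (ctrl, n = 3), 4OHT (4OHT, labelled Tam, n = 3), 4OHT and the ferroptosis inhibitor ferrostatin-1 (4OHT+Fer1, labelled Tam Fer1, n = 3) or ferrostatin-1 alone (Fer1, n = 3), and the other 2 cultures received fresh medium (labelled medium ctrl). The labels call the 4OHT supernatants ferroptotic and the other 3 kinds non-ferroptotic. A single fibroblast line made every supernatant, and agent carried over in a supernatant and what the fibroblasts released cannot be told apart here. Nothing in the labels says which replicates came from separate mice. The p-values then measure the spread between these samples.

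The libraries held 7823028 to 11052333 counts (median 9490448.5). A count of 3 corresponded to 0.272 to 0.381 CPM, the unit of level used here, which scales a count to its library total times a TMM factor. All 8 macrophage markers, among them Adgre1, Csf1r and Lyz2, were detected in every group, with a summed level of 18609 to 27606 CPM in ctrl and 27850 to 43626 CPM in 4OHT. Fibroblast markers summed to 15.1 to 116 CPM, dendritic cell markers to at most 1.39 CPM and lymphocyte markers to at most 0.0991 CPM. Endothelial markers, mostly Kdr, summed to 12.9 to 44.6 CPM in the supernatant groups and 39.3 to 59.6 CPM in fresh medium.

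Marco and Mrc1 were the members that passed the test in any comparison. Their promoters are shown because the results turn on these genes. Each runs from 250 to 26 bases upstream of the RefSeq transcription start (GRCm38.p6), and capitals mark matches to GAGGAA on either strand, the core bound by PU.1, a lineage factor of macrophages. The Marco stretch is chr1:120505050-120505274 on the minus strand and the Mrc1 stretch is chr2:14229164-14229388 on the plus strand.
Marco: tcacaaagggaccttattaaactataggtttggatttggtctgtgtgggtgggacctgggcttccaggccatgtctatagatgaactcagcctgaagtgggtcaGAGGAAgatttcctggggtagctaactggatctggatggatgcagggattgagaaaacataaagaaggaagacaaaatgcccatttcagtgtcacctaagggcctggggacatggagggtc
Mrc1: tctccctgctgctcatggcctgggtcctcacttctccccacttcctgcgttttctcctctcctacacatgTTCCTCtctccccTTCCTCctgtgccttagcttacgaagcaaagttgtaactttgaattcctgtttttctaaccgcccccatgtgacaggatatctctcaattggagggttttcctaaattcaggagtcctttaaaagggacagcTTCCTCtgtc
The Marco window of 250 bases held 1 match, 146 bases upstream of the start, and the Mrc1 window held 3, all on the other strand (TTCCTC), at 180, 167 and 35 bases. GAGGAA was found in 23.3% of the 32817 promoter windows of this length. Neither window held TGANTCA (AP-1, in 6.75% of windows), TGACNNNGC (the antioxidant response element, in 10.2%) or TTCNNNGAA (a STAT motif, in 7.01%), searched on both strands. These matches describe the letters alone. Marco lies at chr1:120474538-120505024 and Mrc1 at chr2:14229392-14332057 (GRCm38, GENCODE M21). The microRNA gene Mir511 lies within Mrc1 on the same strand, and no annotated gene overlaps Marco.

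In pBMDMs given 4OHT supernatant, Marco was the 1 of the 8 tested members that rose, by 9.73-fold over ctrl and 7.96-fold over 4OHT+Fer1. Marco is a class A receptor with a collagen-like stalk that binds bacteria, inert particles and modified lipoproteins. Its estimated counts were 5, 5 and 19 in ctrl, 2, 6 and 20 in Fer1, and 0, 8 and 34 in 4OHT+Fer1. In 4OHT they were 42, 100 and 90, and in fresh medium 63 and 109. As levels, Marco stood at 0.506, 0.502 and 2.10 CPM in ctrl (mean 1.03 ± 0.919, SD, n = 3) and at 4.42, 9.06 and 11.4 CPM in 4OHT (8.28 ± 3.54, SD, n = 3). All 3 4OHT cultures lay above all 3 ctrl cultures, and replicate 3 was the highest in each of the 4 supernatant groups.

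Marco rose by 3.28 ± 0.56 on the log2 scale (SE, 95% interval 2.07 to 4.49) in 4OHT over ctrl, with an adjusted p of 0.0157 (edgeR quasi-likelihood test, Benjamini-Hochberg over all genes tested). The call needed an adjusted p under 0.05 and a log2 fold change above 1 in size, which 1.11% of all genes tested met, and Marco was 1 of the 8 members tested. Within replicates 1, 2 and 3 the difference in log2 CPM was 2.69, 3.70 and 2.33. The exact two-sided permutation test over the 6 samples gave p = 0.1, the smallest value that 3 against 3 allows. Without the replicate number as a block the log2 fold change was 3.00 with an edgeR adjusted p of 0.363. Leaving out ctrl replicate 1 or 2, or 4OHT replicate 1 or 2, also ended the call, with edgeR adjusted p from 0.0564 to 0.0991 and fold changes that stayed above 1 on the log2 scale, as did leaving out all replicate 1 or all replicate 2 cultures (0.181 and 0.524). The summed macrophage marker level was higher in 4OHT than in ctrl (above), a sum made up mostly of Lyz2 (median 20885 CPM over all libraries). Of the 8 markers, 4 had positive log2 differences between 4OHT and ctrl (Csf1r 1.03, Mertk 0.63, Lyz2 0.50, Adgre1 0.46) and 4 negative ones (C1qa −0.080, Itgam −0.26, Fcgr1 −0.32, Cd14 −0.37). None of them was called, and their part in the Marco difference was not tested. Fewer cells of a kind and less RNA per cell cannot be told apart in such cultures.

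**Figure D1:**
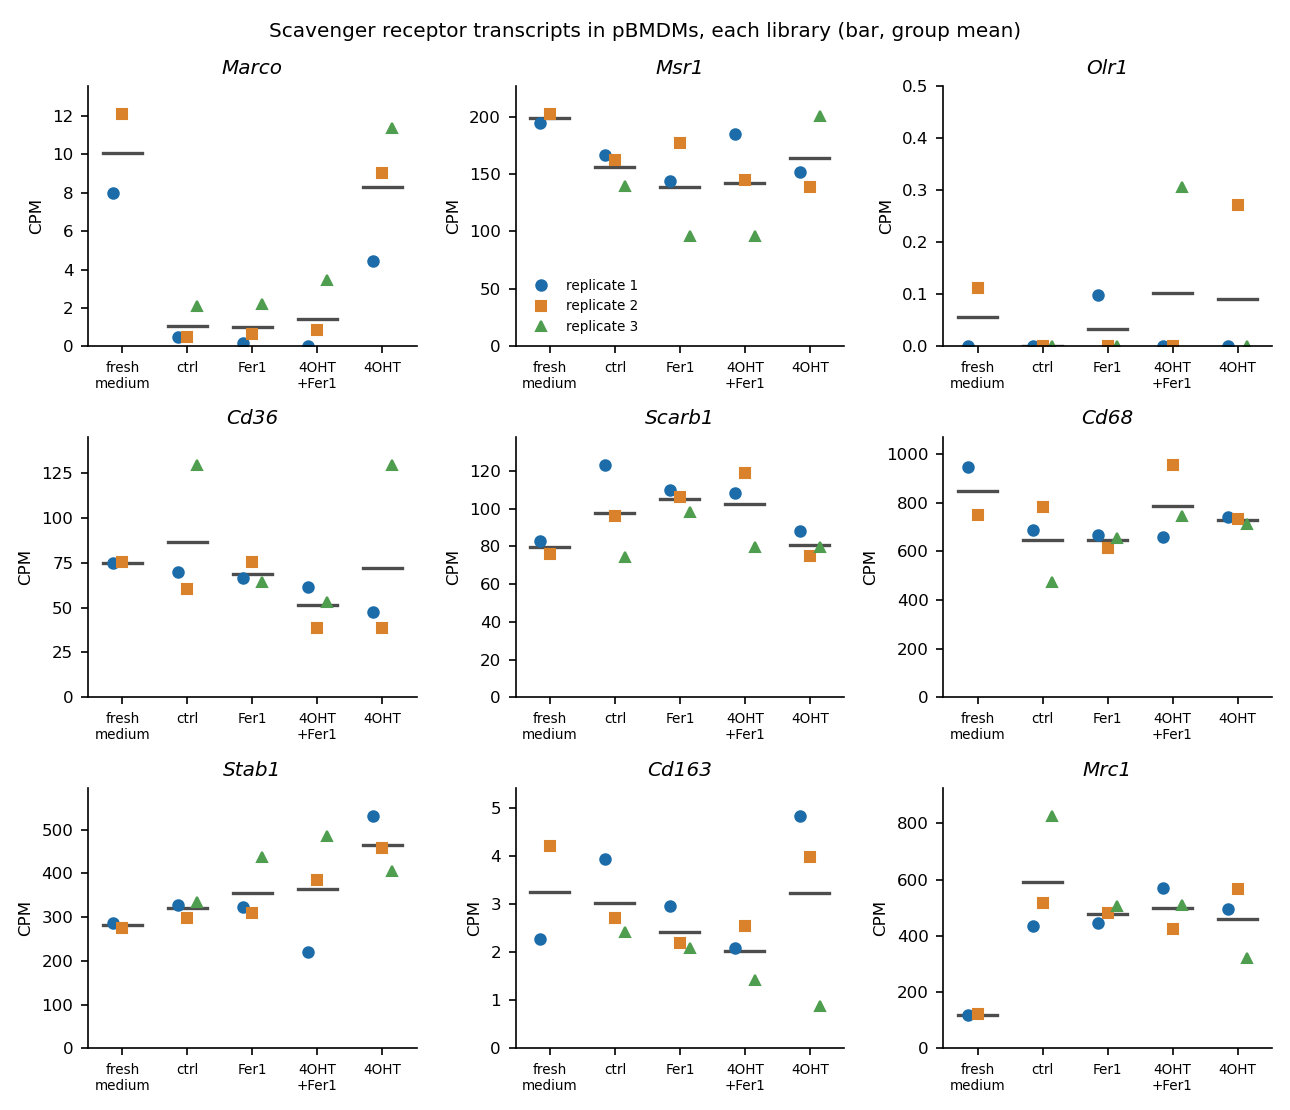
Level of each scavenger receptor transcript (CPM, linear axis from 0, each panel with its own scale) in every library, by group; colours and shapes mark the replicate number and bars the group mean. Marco is high in fresh medium and 4OHT and low in ctrl, Fer1 and 4OHT+Fer1, while Mrc1 is low in fresh medium alone.

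With ferrostatin-1 in the fibroblast culture, Marco stood near the ctrl level. The 4OHT+Fer1 cultures held 0, 0.849 and 3.48 CPM (1.44 ± 1.81, SD, n = 3) and the Fer1 cultures 0.198, 0.625 and 2.20 CPM (1.01 ± 1.05, SD, n = 3). The count of 0 in 4OHT+Fer1 replicate 1 allows a level of up to 0.313 CPM, for counting error only. Each 4OHT culture lay above each 4OHT+Fer1 culture, in Marco alone of the 8 members (against 10.2% of all genes), although 4OHT replicate 1 (4.42 CPM) and 4OHT+Fer1 replicate 3 (3.48 CPM) came close. The log2 fold change between 4OHT and 4OHT+Fer1 was 2.99 ± 0.54 (SE, 95% interval 1.82 to 4.17, edgeR adjusted p = 0.0246), against 1.03% of all genes called. Within replicates the differences in log2 CPM were 4.45, 3.13 and 1.65. Without the replicate block this log2 fold change was 2.50 with an edgeR adjusted p of 0.469. The comparison also lost its call without 4OHT replicate 1 or 2, or 4OHT+Fer1 replicate 2 or 3, with edgeR adjusted p from 0.0595 to 0.110, and without all replicate 1 or all replicate 2 cultures (0.279 and 0.565).

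Marco differed by 0.41 (log2, 95% interval −0.95 to 1.76) between 4OHT+Fer1 and Fer1 and by −0.12 (−1.53 to 1.29) between Fer1 and ctrl, and both intervals hold changes of more than 2-fold. No member was called in either comparison by edgeR or by DESeq2, and none had an unadjusted p under 0.05, which 2.07% and 1.14% of all genes had. The share of all genes called was 0.0233% in the first and 0% in the second. The difference of the 4OHT effect on Marco without and with ferrostatin-1 was 2.88 ± 0.85 (log2, SE, 95% interval 1.04 to 4.72), which had an unadjusted p of 0.00514 and an adjusted p of 0.417 (edgeR interaction term) and did not pass. Of all genes 0.0311% were called in this term, and Marco was the 1 member with an unadjusted p under 0.05, against 6.2% of all genes.

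Fresh medium was the other condition with high Marco. The 2 cultures held 7.99 and 12.1 CPM, within or just above the 4.42 to 11.4 CPM of 4OHT and above every ctrl, Fer1 and 4OHT+Fer1 culture. Marco was 18.8-fold lower in ctrl than in fresh medium (log2 −4.23 ± 0.61, SE, 95% interval −5.55 to −2.91, edgeR adjusted p = 0.000846). It was 15.4-fold lower in 4OHT+Fer1 (edgeR adjusted p = 0.00126) and 20.4-fold lower in Fer1 (edgeR adjusted p = 0.000747), and these 3 comparisons share the same 2 medium cultures. Between 4OHT and fresh medium the log2 difference was −0.95 ± 0.50 (SE, 95% interval −2.04 to 0.14, edgeR adjusted p = 0.413), with overlapping groups. It ran from −1.35 without all replicate 2 cultures to −0.28 without the replicate block, and no alternative called it. In order of level the groups ran fresh medium, 4OHT, 4OHT+Fer1, ctrl and Fer1, and only 4OHT and 4OHT+Fer1 were neighbours whose ranges did not overlap. Without the replicate block the log2 differences from fresh medium, which has no replicate 3, were −3.28 in ctrl, −2.79 in 4OHT+Fer1 and −3.32 in Fer1, with edgeR adjusted p of 0.0935, 0.143 and 0.0940. In replicates 1 and 2 alone, with the block, they were −4.29, −4.67 and −4.65, with edgeR adjusted p of 0.000942, 0.000722 and 0.000749. Without all replicate 2 cultures the ctrl difference was −4.25 with an edgeR adjusted p of 0.0994.

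Mrc1 took another course. It encodes the mannose receptor CD206, a C-type lectin that binds mannose-bearing glycoproteins, and its level was low in fresh medium and several times higher in every supernatant. The fresh medium cultures held 117 and 122 CPM. The ctrl cultures held 434, 517 and 827 CPM (593 ± 207, SD, n = 3), Fer1 445, 483 and 506 (478 ± 30.6), 4OHT+Fer1 571, 423 and 509 (501 ± 74.2), and 4OHT 494, 567 and 322 CPM (461 ± 126). Every culture in supernatant lay above both in fresh medium, while the 4 supernatant groups overlapped one another.

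Mrc1 was 4.81-fold higher in ctrl than in fresh medium (log2 2.27 ± 0.31, SE, 95% interval 1.58 to 2.95, edgeR adjusted p = 0.000692) and 3.80-fold higher in 4OHT (log2 1.93 ± 0.30, SE, edgeR adjusted p = 0.00514). The excess was 4.11-fold in 4OHT+Fer1 (edgeR adjusted p = 0.00119) and 3.91-fold in Fer1 (edgeR adjusted p = 0.00143). Members called numbered 2 of 8 in ctrl, 4OHT+Fer1 and Fer1 against fresh medium (Marco lower and Mrc1 higher) and 1 of 8 in 4OHT against fresh medium (Mrc1). The shares of all genes called were 7.79%, 7.21%, 7.21% and 3.07% in that order. Between 4OHT and ctrl Mrc1 differed by −0.34 ± 0.25 (log2, SE, 95% interval −0.89 to 0.21, edgeR adjusted p = 0.733), and replicate 3 stood apart: the within-replicate differences were 0.19, 0.13 and −1.36. Between 4OHT and 4OHT+Fer1 the log2 difference was −0.11 (95% interval −0.66 to 0.43, edgeR adjusted p = 0.933). Leaving out either medium culture ended the call of 4OHT against fresh medium, with edgeR adjusted p of 0.0867 and 0.0796, as did leaving out all replicate 1 or 2 cultures (0.240 and 0.343). Leaving out all replicate 2 cultures ended that of ctrl against fresh medium (log2 2.38, edgeR adjusted p = 0.0724).

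**Figure D2:**
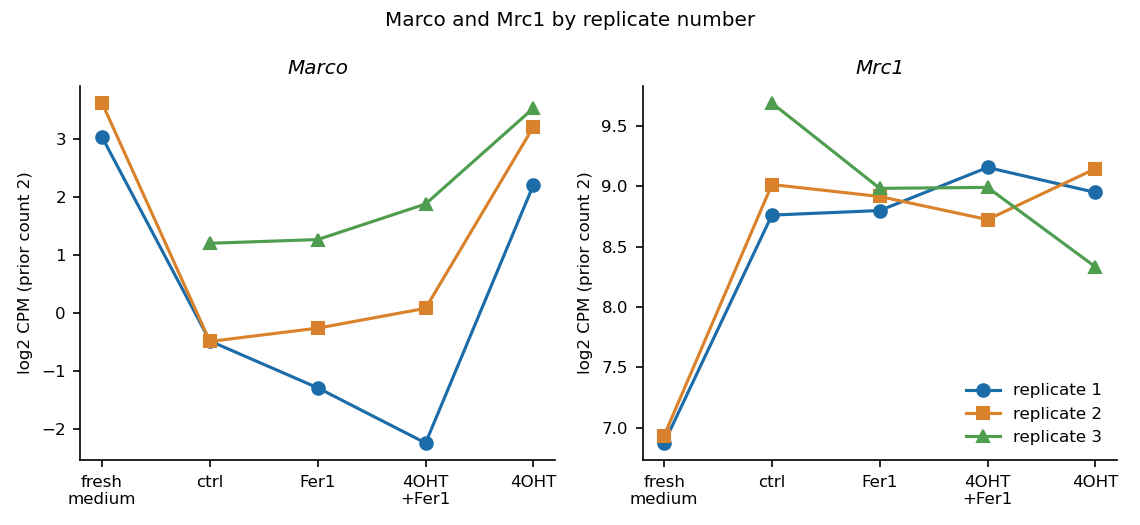
Marco and Mrc1 (log2 CPM with a prior count of 2) in each library, with lines joining libraries of the same replicate number; replicate 3 has no fresh medium library. Within each replicate Marco is higher in 4OHT than in ctrl and 4OHT+Fer1, and Mrc1 is lowest in fresh medium for replicates 1 and 2.

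Marco and Mrc1 were also set against each other within each library. For each 1000 counts of Mrc1 there were 68.3 and 99.3 of Marco in fresh medium, and 8.95, 16.0 and 35.3 in 4OHT. The ctrl cultures had 1.17, 0.971 and 2.54, the Fer1 cultures 0.445, 1.29 and 4.35, and the 4OHT+Fer1 cultures 0, 2.01 and 6.83. Fresh medium lay above every other culture and 4OHT above the remaining supernatants, with no test made of this ratio. Neutrophil and myeloid progenitor markers, of which Ly6g and Elane were at 0 in every library, summed to 34.3 to 47.1 CPM in fresh medium and 2.87 to 25.3 CPM in the supernatant groups. The megakaryocyte marker sum, nearly all Pf4, went the other way, at 89.1 to 104 CPM in fresh medium and 235 to 413 CPM in ctrl. Of the other megakaryocyte markers, Ppbp (at most 1.23 CPM) was lower in ctrl than in fresh medium (log2 −1.53, not called). Itga2b and Gp9 were too low to be tested. In ctrl against fresh medium, where 7.79% of all genes were called, Pf4 was called higher (log2 1.58) and S100a8 lower (log2 −1.49). The fibroblast markers Col1a1 (log2 −1.17) and Col1a2 (log2 −1.22) were called lower, while Col3a1 was higher (log2 0.74, not called). Of the 8 fibroblast markers only these 3 could be tested. The part of these cell types in the differences of Marco and Mrc1 from fresh medium was not tested.

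Marco was also the 1 member of 8 whose level moved with the replicate number (edgeR adjusted p = 0.0173, with 10.2% of all genes passing). It was 0.95 higher in replicate 2 than in replicate 1, and 2.43 higher in replicate 3, on the log2 scale. The other 7 members had edgeR adjusted p of 0.157 or more in this test. Cd36 was the nearest, 0.60 higher in replicate 3.

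**Figure D3:**
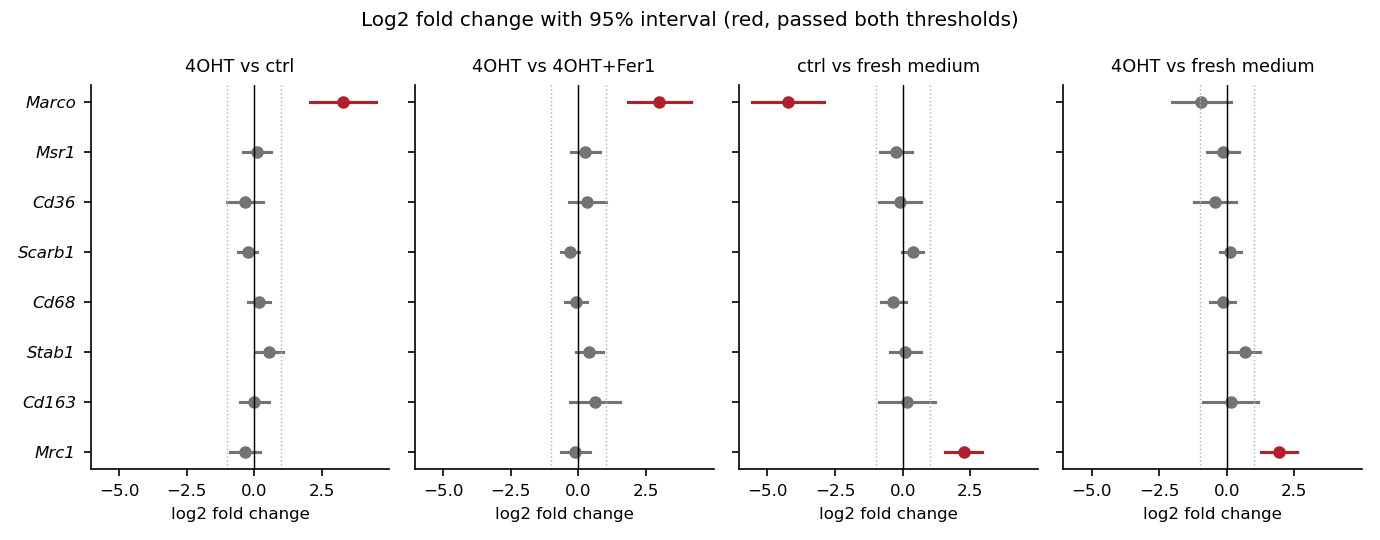
Log2 fold change of the 8 tested members with its 95% interval in 4 comparisons (edgeR); red marks members that passed both thresholds and dotted lines a log2 fold change of 1 in size. Marco passes in 3 of the 4 panels and Mrc1 in both panels against fresh medium, and the other members lie within 0.66 of 0. The interval drawn for Cd163 in 4OHT against ctrl is unreliable, as its log2 fold change is so near 0.

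The other 6 members tested did not pass in any comparison. In 4OHT against ctrl their log2 fold changes ran from −0.34 to 0.55 with edgeR adjusted p of 0.386 or more, and in 4OHT against 4OHT+Fer1 from −0.32 to 0.60 with 0.448 or more. Against fresh medium they ran from −0.35 to 0.38 for ctrl and from −0.44 to 0.66 for 4OHT, with edgeR adjusted p of 0.222 and 0.227 or more. Counting Marco and Mrc1, 4 of the 8 members did not overlap between ctrl and fresh medium, against 34.5% of all genes.

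Msr1 encodes the founding class A receptor, which takes up acetylated and oxidised low-density lipoprotein. Its level was 166, 162 and 140 CPM in ctrl, 152, 139 and 200 CPM in 4OHT, and 195 and 202 CPM in fresh medium. The 4OHT and ctrl cultures overlapped, and the log2 difference was 0.10 with a 95% interval of −0.42 to 0.61. In contrast to Marco of the same class, Msr1 spanned no more than 1.43-fold between its highest and lowest group means.

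The class B receptors bind lipids and lipoproteins. Cd36, a receptor for oxidised lipoprotein and a fatty acid transporter, stood at 69.8, 60.6 and 129 CPM in ctrl and at 47.3, 38.6 and 129 CPM in 4OHT. Replicate 3 was high in both groups, and the log2 difference was −0.34 (95% interval −1.02 to 0.33). In 4OHT+Fer1 it held 61.6, 38.8 and 53.0 CPM, below every Fer1 culture (64.2 to 75.1 CPM), with an edgeR adjusted p of 1.00. It was the 1 member of 8 without overlap there, against 6.08% of all genes. Scarb1, the receptor for high-density lipoprotein, held 123, 96.0 and 74.2 CPM in ctrl, 88.2, 75.2 and 79.7 CPM in 4OHT, and 108, 119 and 80.0 CPM in 4OHT+Fer1. Scarb1 was lower in 4OHT than in 4OHT+Fer1 in 3 of 3 replicates, by little in replicate 3, and the groups overlapped. The log2 difference was −0.32 (95% interval −0.66 to 0.02). Another annotated gene, Gm42633, overlaps Scarb1 on the same strand.

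Cd68, a heavily glycosylated protein of late endosomes and lysosomes, held 473 to 784 CPM in ctrl, 714 to 742 CPM in 4OHT and 752 and 948 CPM in fresh medium. Its log2 difference between 4OHT and ctrl was 0.19 (95% interval −0.22 to 0.59). Olr1, the lectin-like receptor LOX-1 for oxidised low-density lipoprotein, was hardly detected in these libraries. It had 8 counts in all 14 samples, at most 3 in any library, and 0 in each ctrl library, so no fold change is given.

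Stab1, a large receptor for acetylated lipoprotein and for ligands of the extracellular matrix, had the lowest p among these 6 members in 4OHT against ctrl. It held 327, 299 and 336 CPM in ctrl (320 ± 19.1, SD, n = 3) and 531, 457 and 406 CPM in 4OHT (465 ± 62.8, SD, n = 3). All 4OHT cultures lay above all ctrl cultures, as for Marco, so that 2 of the 8 members did not overlap between these groups, against 11.1% of all genes. The log2 difference was 0.55 ± 0.23 (SE, 95% interval 0.06 to 1.05) with an unadjusted p of 0.0311 and an edgeR adjusted p of 0.386. In 4OHT+Fer1 Stab1 held 220, 385 and 486 CPM, which overlapped 4OHT, and fresh medium held 287 and 275 CPM. The gene Nt5dc2 overlaps Stab1 on the opposite strand.

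Cd163 takes up haemoglobin bound to haptoglobin. It was scarce, with 7 to 46 counts a library, and held 3.95, 2.71 and 2.43 CPM in ctrl and 4.84, 3.99 and 0.885 CPM in 4OHT. The 4OHT cultures held both the highest and the lowest Cd163 level of all libraries. The log2 difference was −0.00068, and within replicates 1, 2 and 3 the differences in log2 CPM were 0.28, 0.52 and −1.27. No interval is given, because its SE (0.25, against 0.42 between 4OHT and 4OHT+Fer1) is unreliable for a change so near 0. With Mrc1 it is often read as a mark of the same macrophage state, but the Cd163 levels in fresh medium (2.28 and 4.22 CPM) lay within the range of the supernatant groups.

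Beyond the members, 32 further scavenger receptor genes were listed, of which 31 were in the table and 15 could be tested. In 4OHT against ctrl 1 rose and 0 fell, where 1.11% of all genes were called. At an unadjusted p under 0.05 (edgeR) 2 were higher and 4 lower, against 10.8% of all genes. The list's median log2 fold change was 0.13 against 0.01 over all genes. The gene that rose was Clec7a, which encodes the beta-glucan receptor dectin-1. Its level was 148 ± 73.1 CPM in ctrl and 359 ± 273 CPM in 4OHT (SD, n = 3). Clec7a was higher in 4OHT in 3 of 3 replicates, although the groups overlapped, with a log2 fold change of 1.14 ± 0.19 (SE, edgeR adjusted p = 0.0153). It was highest in fresh medium (870.7 CPM), and it was lower than this in both ctrl (log2 −3.11, edgeR adjusted p = 1.28e-05) and 4OHT (log2 −1.97, edgeR adjusted p = 0.00106). In 4OHT against 4OHT+Fer1 its log2 fold change was 1.00 (edgeR adjusted p = 0.0302), just under the fold threshold, and 0 of the 15 were called by edgeR, 1 by DESeq2, with 6 at an unadjusted p under 0.05, which 11.8% of all genes had. Without the replicate block no gene of the list was called in 4OHT against ctrl.

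Of the same list, 2 genes were higher and 3 lower in ctrl than in fresh medium, where 7.79% of all genes were called, and its median log2 fold change was −0.51 against −0.01 over all genes. Among the higher was Lrp8, a receptor for apolipoprotein E and reelin (log2 2.03, edgeR adjusted p = 0.0352). Lower beside Clec7a were Cd207 (log2 −3.86, edgeR adjusted p = 0.00736) and Pla2r1 (log2 −2.65, edgeR adjusted p = 0.0446), both below 4 CPM in every group mean. Cd5l, a secreted scavenger protein of macrophages, held 118 CPM in ctrl, 64.1 in 4OHT and 151 in 4OHT+Fer1. Its log2 difference of −1.31 between 4OHT and 4OHT+Fer1 had an edgeR adjusted p of 0.112, without overlap between the groups. Lrp1, an uptake receptor for many ligands, and Cd44, the hyaluronan receptor, differed by −0.54 and 0.39 between 4OHT and ctrl, with edgeR adjusted p of 0.455 and 0.551.

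**Figure D4:**
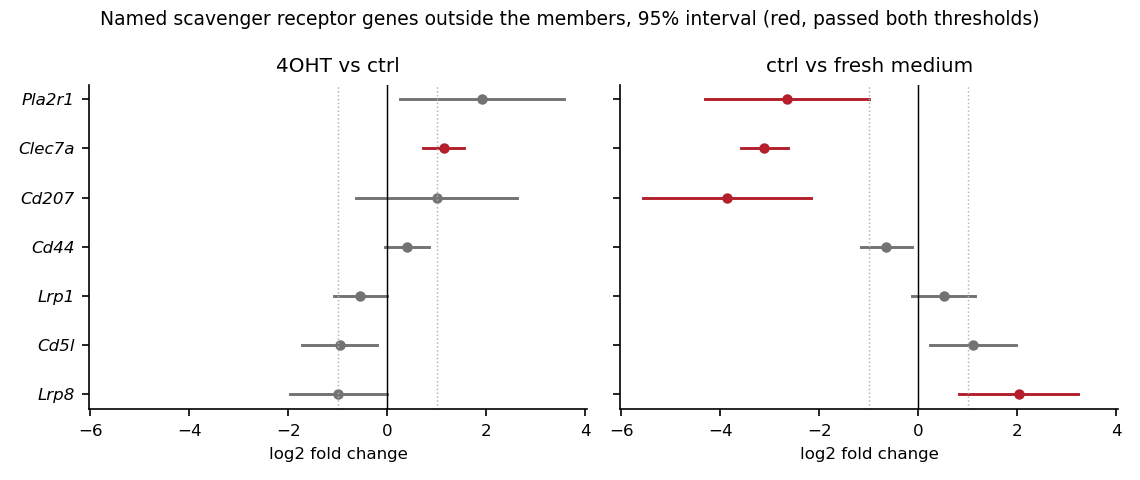
Log2 fold change with its 95% interval (edgeR) of the 7 scavenger receptor genes named here outside the members, in 4OHT against ctrl and in ctrl against fresh medium; red marks genes that passed both thresholds. Clec7a is the gene that passes in both panels, higher in 4OHT and lower in ctrl.

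All 11 transcription factors listed as possible regulators of scavenger receptor genes were tested. In 4OHT against ctrl 1 rose and 0 fell, where 1.11% of all genes were called. The factor that rose was Nr1h3, the oxysterol-sensing nuclear receptor LXRα, at 13.2 ± 9.72 CPM against 4.50 ± 1.21 CPM (SD, n = 3). The groups did not overlap, and the log2 fold change was 1.37 (edgeR adjusted p = 0.0270). Replicate 3 stood highest, with 7.16, 7.97 and 24.4 CPM in 4OHT. Between 4OHT and 4OHT+Fer1 the Nr1h3 groups overlapped (log2 0.74, edgeR adjusted p = 0.244). The alternative models and leave-outs were not run for this list. Nr1h3 was lower in ctrl than in fresh medium (20.6 CPM, log2 −2.58, edgeR adjusted p = 0.000182). So was Irf4, a factor of alternative activation (log2 −1.75, edgeR adjusted p = 0.0246), where 7.79% of all genes were called. In 4OHT against 4OHT+Fer1 none of the 11 was called by edgeR, 5 had an unadjusted p under 0.05 (11.8% of all genes), and Klf4 had an edgeR adjusted p of 0.0476 with a log2 difference of −0.94, under the fold threshold. Rxra and Stat6 differed by 0.41 and 0.35 between 4OHT and ctrl, with edgeR adjusted p of 0.299 and 0.821.

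Of 13 genes that handle what scavenger receptors bring in, 12 were tested, and none was called in 4OHT against ctrl by edgeR, with 3 at an unadjusted p under 0.05 (10.8% of all genes). In 4OHT against 4OHT+Fer1 1 rose, where 1.03% of all genes were called. The gene that rose was the iron exporter Slc40a1 (ferroportin), at 163 ± 55.3 CPM against 67.4 ± 29.5 CPM (SD, n = 3). Its groups did not overlap (log2 1.31, edgeR adjusted p = 0.0132). The alternative models and leave-outs were not run for these genes either. In ctrl against fresh medium, where 7.79% of all genes were called, Fabp5, a fatty acid carrier, was higher (log2 1.28, edgeR adjusted p = 0.0152). The lipid droplet protein Plin2 (log2 −1.10, edgeR adjusted p = 0.0278) and lipoprotein lipase Lpl (log2 −1.66, edgeR adjusted p = 0.00174) were lower. Blvrb, Lipa and Npc2, which handle haem products and lysosomal lipid, differed by 0.45, 0.43 and 0.28 between 4OHT and ctrl. Their edgeR adjusted p were 0.282, 0.566 and 0.803.

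The genes most like Marco in log2 CPM over the 14 samples, outside the members and predicted genes, were Il1b (r = 0.966), Trf (r = 0.963) and the small nuclear RNA 7SK (r = 0.955, a multi-copy family). Il1b, the cytokine interleukin-1β, held mean levels of 7.55 CPM in ctrl, 40.5 in 4OHT, 7.94 in 4OHT+Fer1, 5.25 in Fer1 and 44.9 in fresh medium. For Mrc1, added after its values were seen, they were Ckap2 (r = 0.952), Aplf (r = 0.944) and Anln (r = 0.941). Ckap2, a spindle protein, held 20.9 CPM in ctrl, 7.61 in 4OHT and 1.14 in fresh medium. These points share libraries and groups, and the correlations are descriptions.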

How the data were processed

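RNA of pBMDMs exposed for 24 h was sequenced from transcript 3′ ends (QuantSeq). The authors aligned the reads with STAR (version 2.7.10a in the submitters' notes), quantified genes with Salmon (1.5.2) and deposited expected counts, which are estimated and not normalised. The notes name both GRCh38 and GRCm38, and the identifiers are those of mouse genes. Positions are from GENCODE M21 and promoters from RefSeq, where 7 of the 9 members matched. Columns of the authors' own comparisons (fold changes, standard errors, p-values and the Wald statistic) and the CPM beside them were not used.

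The 30109 estimated counts that were not whole were rounded. Genes passing filterByExpr (minimum count 10) were fitted in 1 edgeR model (4.0.16, R 4.3.3) with TMM factors, over all 14 samples, with group and replicate number as terms. Calls needed a Benjamini-Hochberg adjusted p under 0.05 and a log2 fold change beyond 1 in either direction. Log2 CPM used a prior count of 2. Intervals are at 95% and cover the spread between samples. Each SE was the size of the log2 fold change divided by the root of the F statistic, which is unreliable for a change very near 0. The methods put the mouse into the authors' model, and the replicate number was taken to stand for it. Deviations from group means correlated with a median r of 0.247 over 26 pairs of samples with the same number (lowest 0.00221) and −0.139 over 52 other pairs. Taking out the group means ties these values together, so the value of the other pairs is no separate evidence. Replicates differed by more than sampling noise. On simulated data 98% of 200 genes changed 4-fold between 4OHT and ctrl were recovered among 12581 genes, with 6 false calls. The changed genes were drawn from those above a minimum mean level, below which Marco lay. No replicate effect was simulated, so the share recovered does not apply to Marco.

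The members and lists were chosen with earlier results of these data known. Named are all members, listed genes called in 4OHT against ctrl, 4OHT against 4OHT+Fer1 or ctrl against fresh medium, up to 3 more per list by size of change in 4OHT against ctrl with a mean of 10 CPM or more, and the 3 genes most like each member called there. One listed gene that met this rule is not reported here. Alternatives were DESeq2 (1.42.0), other scaling, filters and models, and leaving out replicates or single libraries. Single libraries, and the alternatives for 4OHT+Fer1 and Fer1 against fresh medium, were chosen after the data were seen.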

Additional observations from a re-analysis of the deposited data

How the results depend on the processing

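Marco kept its direction in 4OHT against ctrl and against 4OHT+Fer1 under every alternative run, with log2 fold changes of 2.90 to 3.93 and 2.50 to 4.03 and edgeR or DESeq2 adjusted p from 2.95e-06 to 0.524 and from 1.02e-05 to 0.565. In ctrl against fresh medium it ran from −4.57 to −3.28, and Mrc1 from 1.99 to 2.51. Fresh medium had 2 cultures and none of replicate 3, and Marco had 503 counts in all libraries together. Without the replicate block the members called fell to 0 in 4OHT against ctrl and against 4OHT+Fer1 and to 1 in ctrl against fresh medium, and the further scavenger receptors to 0, 1 and 0 in 4OHT against ctrl, ctrl against fresh medium and 4OHT against fresh medium. With only the groups compared in the fit, 0 members were called in the same 2 comparisons with 4OHT, and of the further receptors 0 in 4OHT against ctrl and 8 in ctrl against fresh medium. In 4OHT against 4OHT+Fer1 1 further receptor was called with DESeq2, with no filter or with no minimum fold change, and in 4OHT against fresh medium 1 with no scaling factors. Leaving out a replicate gave 0 to 1 members in 4OHT against ctrl, against 4OHT+Fer1 and against fresh medium and 0 to 2 in ctrl against fresh medium, and 0 to 1, 0 to 2, 0 to 1 and 1 to 7 further receptors in that order. The causes were not tested.

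Directions that turned were all of members not called. Without scaling factors Cd36 in ctrl against fresh medium was 0.022. Without the replicate block Cd163 was 0.11 in 4OHT against ctrl and −0.11 in ctrl against fresh medium, and Cd36 0.21 in the latter. Leaving out a replicate or a single library turned others, given here as the lowest and highest log2 fold change. In 4OHT against ctrl Msr1 ran from −0.19 to 0.25, Cd163 from −0.31 to 0.40, Mrc1 from −0.59 to 0.15 and Cd68 from −0.0063 to 0.34. In 4OHT against 4OHT+Fer1 Msr1 ran from −0.16 to 0.56, Cd36 from −0.20 to 0.73, Mrc1 from −0.39 to 0.19 and Cd68 from −0.20 to 0.048. In ctrl against fresh medium Cd36 ran from −0.21 to 0.11 and Cd163 from −0.34 to 0.94. In 4OHT against fresh medium Msr1 ran from −0.46 to 0.077, Cd163 from −0.54 to 0.63 and Cd68 from −0.31 to 0.080. Of the other values by gene, 396 kept direction and call and 25 lost the call.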

Other observations

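Among the 8 tested members, over the 14 samples, Scarb1 ran opposite to Marco in log2 CPM (r = −0.812), and Mrc1 did so less (r = −0.50). Msr1 and Marco, both of class A, had r = 0.052. These samples share their groups and replicate numbers, and the values are descriptions.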
